A study of Mus musculus with 6 samples.

Results

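The subject here is a group of metabolic genes, 9 of the 31017 gene symbols in the count table: Glul, Glud1, Got1, Got2, Gpt2, Pck2, Asns, Aldh18a1 and Pycr1. They were chosen by name for their roles in making and breaking down glutamine, moving amino groups between amino acids, making asparagine and proline, and making phosphoenolpyruvate in mitochondria. RNA was sequenced from mouse T helper 17 (Th17) cells, a class of CD4 T cells named after interleukin 17, which had been differentiated in culture. There were 3 control libraries, labelled wild type, and 3 libraries labelled KO, from cells deficient in RTF1, a protein that travels with RNA polymerase II and promotes ubiquitination of histone H2B. The labels used here give no strain, age, deleting allele or culture condition, and they do not say whether the libraries of a group came from separate animals, so the spread between libraries may in part be technical. The genes were put together with the outcome of the KO against control comparison known. Their differences are therefore given as a description, with the fitted value and its error, and support no further statement.

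Glutamine is the most abundant free amino acid in blood and a major fuel of activated T cells. It is deaminated to glutamate, which glutamate dehydrogenase or a transaminase converts to alpha-ketoglutarate, an intermediate of the tricarboxylic acid cycle. Transaminases pass the amino group of glutamate to oxaloacetate or pyruvate and so make aspartate or alanine, and aspartate and glutamate are in turn the starting points of asparagine and proline. Several of these genes, Asns above all, are textbook targets of ATF4, the transcription factor of the amino acid response.

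Total counts ran from 16489813 to 51271226 per library. The targeted gene Rtf1 held 88.3 to 94.0 CPM (counts scaled to a common library total with TMM factors) in the 3 control libraries and 26.2 to 45.3 CPM in the 3 KO libraries. Libraries numbered 3 in both groups held Y-linked transcripts and almost no Xist, while the other 4 libraries held Xist and almost no Y-linked counts, so each group mixes sexes in the same way. In each group replicate 3 therefore came from a different animal source than replicates 1 and 2. Whether replicates 1 and 2 came from separate animals is not known. Of 7 T helper markers all were detected, with a summed level of 2494 to 3053 CPM in control and 1564 to 2024 CPM in KO, Il17a and Il17f included. Summed markers of B cells, erythroid cells, fibroblasts and CD8 T or NK cells overlapped between the groups, and Ncr1, Klrb1c and Col3a1 had no count in any library. The 5 myeloid markers together held 0.784 to 0.790 CPM in control and 1.84 to 3.61 CPM in KO; their part in the results was not tested.

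In KO cells 7 of the 9 genes were lower, 1 (Glul) was higher and 1 (Glud1) was not called, in edgeR's quasi-likelihood fit over all genes with a Benjamini-Hochberg adjusted p-value under 0.05. Over all 14268 tested genes 46.1% were called, 22.9% lower and 23.2% higher, and the lower calls numbered 3269, or 2170 without KO replicate 2. The KO libraries lay all below or all above the control libraries for 8 of the 9 genes (7 below, 1 above), against 57.9% of all tested genes (28% below, 29.9% above). All 9 genes passed the filter on low counts. The 4 largest decreases, those of Pycr1, Pck2, Gpt2 and Asns, left between 11.9% and 18.4% of the control level. Among all tested genes, 2.19% were called lower with a fitted log2 fold change of −2 or below. The other 3 decreases, of Aldh18a1, Got1 and Got2, left 56.3% to 69.7%. The median log2 fold change of the 9 genes was −0.83, against 0.013 for all tested genes. In cultured populations a smaller share of cells that express a gene and less RNA per cell cannot be told apart.

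**Figure D1:**
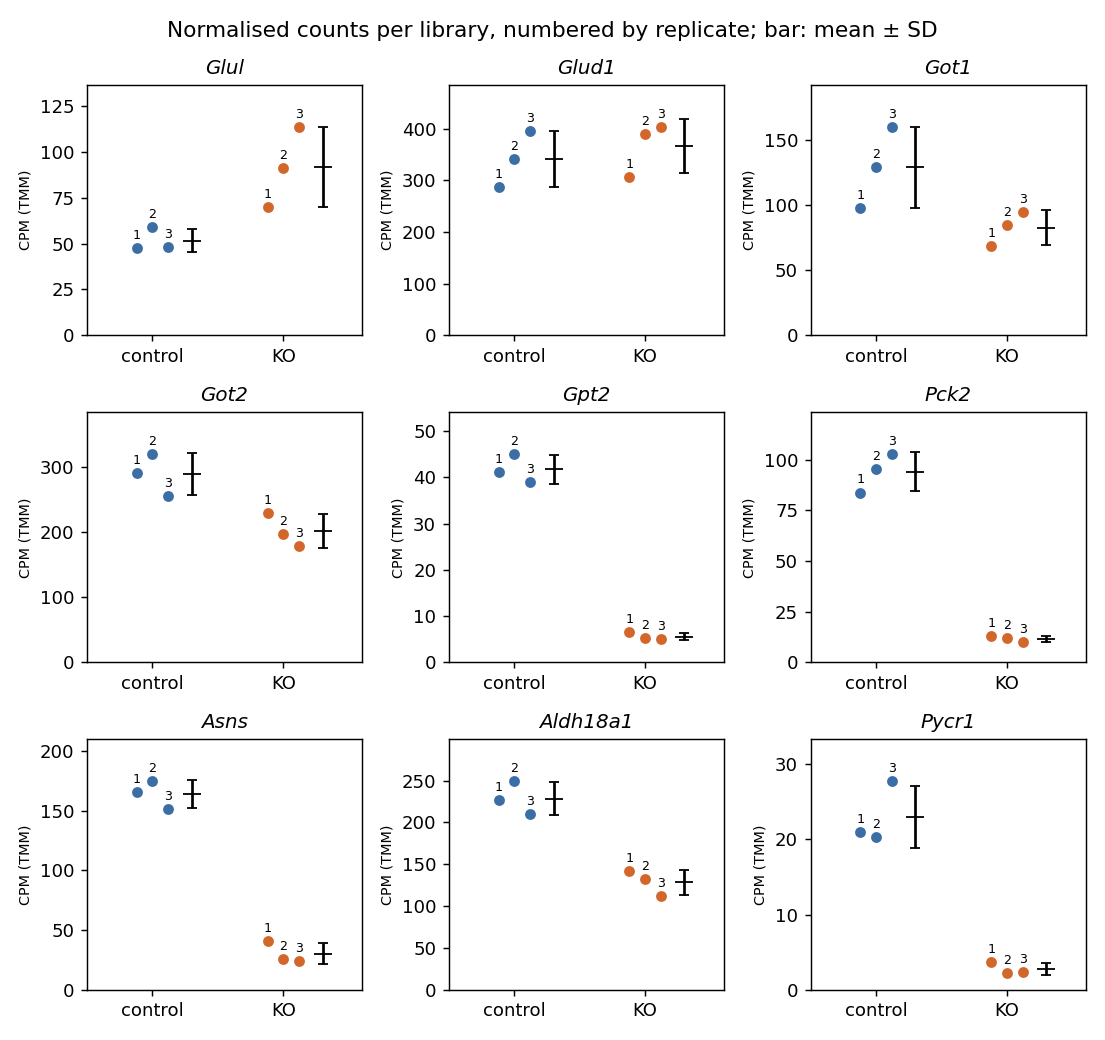
Normalised counts (CPM with TMM factors, vertical axes from 0, one panel per gene) of the 9 genes in each library, numbered by replicate, with control in blue, KO in orange and the mean ± SD over 3 libraries as a bar. The KO points of Gpt2 (4.98 to 6.53 CPM), Pck2, Asns and Pycr1 lie far below every control point, those of Glul lie above, and those of Glud1 overlap control.

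Glul encodes glutamine synthetase, which joins ammonia to glutamate and so runs opposite to glutaminase. It lies on chromosome 1 (153899944 to 153909723, plus strand, GRCm38). Its level was 47.8, 58.8 and 48.1 CPM in control replicates 1, 2 and 3, against 69.97, 91.0 and 114 CPM in the KO replicates. All KO libraries lay above all control libraries, and the KO libraries differed among themselves more than the control libraries did. The means were 51.6 ± 6.26 CPM in control and 91.6 ± 21.9 CPM in KO (SD, n = 3), a 1.77-fold higher level with a fitted log2 fold change of 0.83 (SE 0.180). Leaving out KO replicate 3, the highest library, gave 0.64. Glul shares 12.6% of its 50-base stretches with other transcripts, mainly the pseudogene Glns-ps1.

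Glud1 (chromosome 14, 34310727 to 34345265, plus strand) encodes mitochondrial glutamate dehydrogenase, which releases ammonia from glutamate to give alpha-ketoglutarate. Its values were 286, 342 and 396 CPM in control replicates 1, 2 and 3 and 305, 390 and 404 CPM in KO replicates 1, 2 and 3. The groups overlapped over most of their range, and replicate 1 was the lowest library of each. The fitted log2 fold change was 0.10 (SE 0.161), which the fit did not call, and it was −0.076 when control replicate 1 was left out.

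The cytosolic and mitochondrial aspartate aminotransferases, Got1 and Got2, interconvert aspartate and oxaloacetate on the 2 sides of the malate-aspartate shuttle. Got1 (chromosome 19, 43499752 to 43524605, minus strand) held 97.8, 129 and 161 CPM in control replicates 1, 2 and 3 and 68.6, 85.1 and 95.3 CPM in KO. Control and KO barely separated, since the highest KO library (replicate 3) lay just under the lowest control library (replicate 1). The means of 129 ± 31.4 and 83.0 ± 13.5 CPM (SD, n = 3) correspond to a fitted log2 fold change of −0.64 (SE 0.192). This call was lost without control replicate 2 (−0.66), KO replicate 1 (−0.53) or KO replicate 2 (−0.66).

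Got2 (chromosome 8, 95864134 to 95888547, minus strand) held 291, 320 and 256 CPM in control and 229, 197 and 178 CPM in KO replicates 1, 2 and 3. Each KO library was below each control library, the closest pair being control replicate 3 and KO replicate 1. Its mean fell from 289 ± 32.1 to 202 ± 25.9 CPM (SD, n = 3), a fitted log2 fold change of −0.52 (SE 0.139), and the call was lost without KO replicate 2 (−0.50) or KO replicate 3 (−0.44). Got2 is uncertain in part, because 25.6% of its 50-base stretches occur in other transcripts, mainly Gm10874. Per base of exon, Got1 made up 45.6% ± 7.93 of the 2 aminotransferase transcripts in control and 43.9% ± 7.15 in KO, so their balance moved by less than the spread between libraries.

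Gpt2 (chromosome 8, 85492576 to 85527560, plus strand) encodes the mitochondrial alanine aminotransferase, which makes alanine and alpha-ketoglutarate from pyruvate and glutamate. It held 41.1, 45.1 and 39.0 CPM in control replicates 1, 2 and 3 and 6.53, 5.26 and 4.98 CPM in KO. The groups lay far apart, and within each group the libraries were close together. The mean was 41.7 ± 3.10 CPM in control and 5.59 ± 0.825 CPM in KO (SD, n = 3), 7.46-fold lower, with a fitted log2 fold change of −2.90 (SE 0.159). Gpt, the cytosolic enzyme, was low in both groups, at 4.06 ± 0.450 and 2.88 ± 0.411 CPM (log2 fold change −0.50, edgeR adjusted p = 0.135). Gpt2 accordingly supplied 84.2% ± 2.16 of the alanine aminotransferase transcripts per length in control and 50.3% ± 6.45 in KO.

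Pck2 (chromosome 14, 55540266 to 55551242, plus strand) encodes mitochondrial phosphoenolpyruvate carboxykinase, which turns oxaloacetate into phosphoenolpyruvate. Its level was 83.8, 95.6 and 103 CPM in the control libraries (replicates 1, 2 and 3), against 12.9, 12.2 and 10.2 CPM in KO. The highest KO library was far below the lowest control library. The mean fell 8.0-fold, from 94.1 ± 9.62 to 11.8 ± 1.43 CPM (SD, n = 3), and the fitted log2 fold change was −3.00 (SE 0.145). Its cytosolic counterpart Pck1 had 0 counts in all 6 libraries, which allows at most 3 counts, or 0.0585 to 0.182 CPM depending on the depth of the library, with counting error only.

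Asns (chromosome 6, 7675169 to 7693254, minus strand) encodes asparagine synthetase, which moves the amide of glutamine onto aspartate. It held 166, 175 and 151 CPM in control replicates 1, 2 and 3 and 40.6, 25.6 and 24.4 CPM in KO. KO replicate 1 was the highest of its group and still far below control replicate 3, the lowest control library. The mean was 164 ± 11.98 CPM in control and 30.2 ± 9.01 CPM in KO (SD, n = 3), 5.43-fold lower, with a fitted log2 fold change of −2.44 (SE 0.199). Leaving out KO replicate 1 gave −2.72, and leaving out KO replicate 3 gave −2.31.

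Proline is made from glutamate in 2 enzymatic stages, and the genes for them differed in how far they fell. Aldh18a1 (chromosome 19, 40550257 to 40588463, minus strand) encodes the synthase that reduces glutamate to the semialdehyde precursor of pyrroline carboxylate. Its libraries held 226, 250 and 210 CPM in control and 141, 132 and 112 CPM in KO replicates 1, 2 and 3, with no overlap. The mean fell 1.78-fold, from 228 ± 20.1 to 129 ± 15.03 CPM (mean ± SD of 3 libraries), with a log2 fold change of −0.83 (SE 0.129).

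Pycr1 (chromosome 11, 120635712 to 120643769, minus strand) encodes a mitochondrial reductase that completes proline. It was the least abundant of the 9 genes, with 21.0, 20.3 and 27.8 CPM in control replicates 1, 2 and 3 and 3.68, 2.27 and 2.29 CPM in KO. These KO values rest on 97, 85 and 45 counts. The mean was 23.01 ± 4.14 CPM in control and 2.75 ± 0.811 CPM in KO (SD, n = 3), 8.38-fold lower, and the fitted log2 fold change was −3.07 (SE 0.248). Without KO replicate 1 it was −3.34, the lowest value over the 6 fits that left out 1 library.

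The related cytosolic reductase Pycrl was also lower in KO, at 8.40 ± 1.98 against 17.9 ± 2.90 CPM in control (SD, n = 3). Its log2 fold change was −1.09 ± 0.215 (SE; adjusted p = 0.00394 by edgeR).

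**Figure D2:**
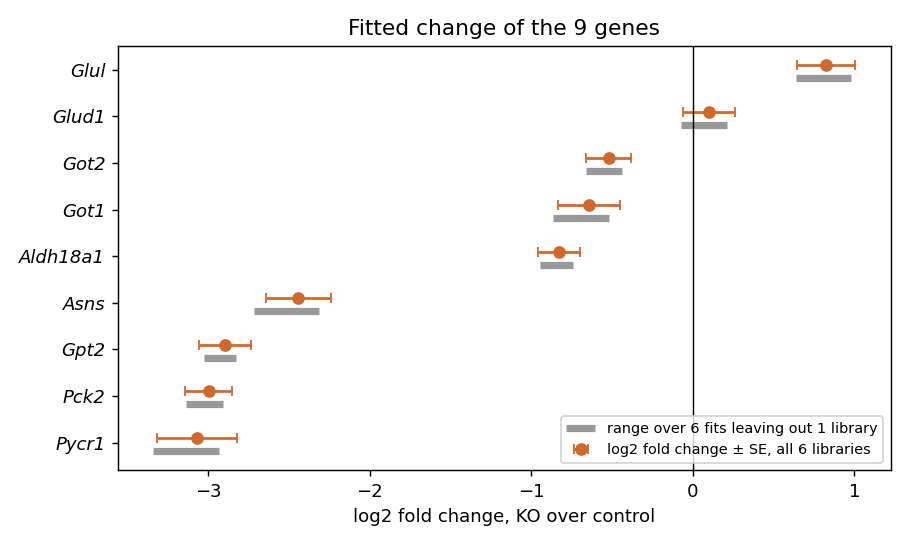
Fitted log2 fold change of KO over control for each of the 9 genes (orange points, bars ± SE) and the range over the 6 fits that leave out 1 library (grey). Asns, Gpt2, Pck2 and Pycr1 lie between −3.07 and −2.44, Aldh18a1, Got1 and Got2 between −0.83 and −0.52, and the grey range of Glud1 crosses 0.

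The promoters of these genes were inspected for the element through which ATF4 acts. The element was chosen with the fall of Asns and its relatives known, and several of the 9 genes are textbook ATF4 targets. The share of windows with a match is therefore a description, and a role of ATF4 was not tested. ATF4 pairs with C/EBP proteins on a composite element, searched here as TGATGNAA on both strands of the 300-base RefSeq window (GRCm38.p6) from 250 bases before to 50 after the transcription start. Windows were found for all 9 genes, and 4 of them held a match, against 3.97% of 32851 promoter windows of the same length. The matches, written 5′ to 3′ on the strand of the gene with 11 flanking bases and the matched bases in capitals, are shown so that the 4 sites can be compared; Got1 and Pck2 carry the element as its reverse complement.
Asns, chr6:7693214-7693243: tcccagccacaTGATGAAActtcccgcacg
Pycr1, chr11:120643833-120643862: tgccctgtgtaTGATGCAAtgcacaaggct
Pck2, chr14:55540152-55540181: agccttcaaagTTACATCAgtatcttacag
Got1, chr19:43524689-43524718: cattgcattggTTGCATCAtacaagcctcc

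In Pck2 and Pycr1 the match spans bases −103 to −96 from the RefSeq start, and in Got1 bases −102 to −95. In Asns it spans −23 to −16, and these 30 bases fall inside an exon of GENCODE M21, whose annotated Asns start lies further upstream. Asns, Pck2 and Pycr1 were among the 4 with the largest decreases, while Got1 was 1.56-fold lower. Gpt2, 7.46-fold lower, held no match in its window, nor did Glud1, Glul, Got2 or Aldh18a1. The E-box CACGTG, a site for MYC and related factors, occurred in 1 of the 9 windows, that of Aldh18a1 (bases −59 to −54), and in 7.15% of all windows. The cyclic AMP element TGACGTCA occurred in none of the 9 and in 1.79% of all windows. A match is a run of letters and does not show that a factor binds there.

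For context, the 200 bases from −250 to −51 are given for the 4 genes with the largest decreases, with motif matches in capitals; none of these bases lies in an exon of GENCODE M21. Pycr1 and Pck2 each hold their element in this stretch, Gpt2 holds none, and the Asns element lies downstream of it.
Pycr1, minus strand, chr11:120643799-120643998: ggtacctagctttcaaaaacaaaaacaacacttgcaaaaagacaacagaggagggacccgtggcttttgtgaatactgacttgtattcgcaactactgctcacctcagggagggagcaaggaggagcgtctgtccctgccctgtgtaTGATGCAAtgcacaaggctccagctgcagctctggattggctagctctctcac
Pck2, plus strand, chr14:55540016-55540215: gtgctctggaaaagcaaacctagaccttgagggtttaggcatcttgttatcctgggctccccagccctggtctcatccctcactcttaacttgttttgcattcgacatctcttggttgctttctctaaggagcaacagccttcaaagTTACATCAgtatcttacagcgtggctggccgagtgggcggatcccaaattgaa
Gpt2, plus strand, chr8:85492326-85492525: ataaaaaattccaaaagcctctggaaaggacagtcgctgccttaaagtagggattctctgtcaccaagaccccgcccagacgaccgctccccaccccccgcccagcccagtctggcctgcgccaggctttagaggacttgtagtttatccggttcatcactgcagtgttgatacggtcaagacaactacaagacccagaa
Asns, minus strand, chr6:7693260-7693459: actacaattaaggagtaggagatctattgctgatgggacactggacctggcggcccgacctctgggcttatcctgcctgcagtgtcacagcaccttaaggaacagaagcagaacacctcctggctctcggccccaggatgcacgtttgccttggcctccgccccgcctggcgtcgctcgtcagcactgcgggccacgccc

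Levels of different genes were compared per length, as TPM computed from the counts and all exon bases of each gene. In control, Glud1 was highest at 248.8 ± 42.2 TPM (SD, n = 3), followed by Asns (184 ± 9.65), Got2 (184 ± 13.9), Aldh18a1 (172 ± 8.24) and Got1 (156 ± 39.3). The 3 libraries of Glud1 (217 to 297 TPM) lay above those of all the others, whereas Asns, Got2, Aldh18a1 and Got1 overlapped with their neighbours. Glul (47.4 ± 2.85 TPM), Pck2 (36.99 ± 3.999), Gpt2 (22.6 ± 0.765) and Pycr1 (18.02 ± 3.84) formed a lower tier, in which only Gpt2 and Pycr1 overlapped. With the length of the longest protein-coding transcript instead, a choice made after the data were seen, the order began with Got2, Glud1 and Asns, and Pck2 passed Glul.

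In KO the order of levels was different. Asns dropped from the second to the sixth place, at 37.2 ± 10.8 TPM (SD, n = 3), and Glul, at 93.1 ± 22.6 TPM, overlapped with Aldh18a1 (107 ± 12.1) and Got1 (110 ± 18.5). Pck2 (5.09 ± 0.605 TPM), Gpt2 (3.34 ± 0.467) and Pycr1 (2.35 ± 0.673) kept the last places. Summed over the 9 genes, the level went from 1069 ± 55.8 TPM in control to 793 ± 45.4 TPM in KO, and the sum of Asns, Gpt2, Pck2 and Pycr1 from 261 ± 6.16 to 48.0 ± 12.4 TPM.

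**Figure D3:**
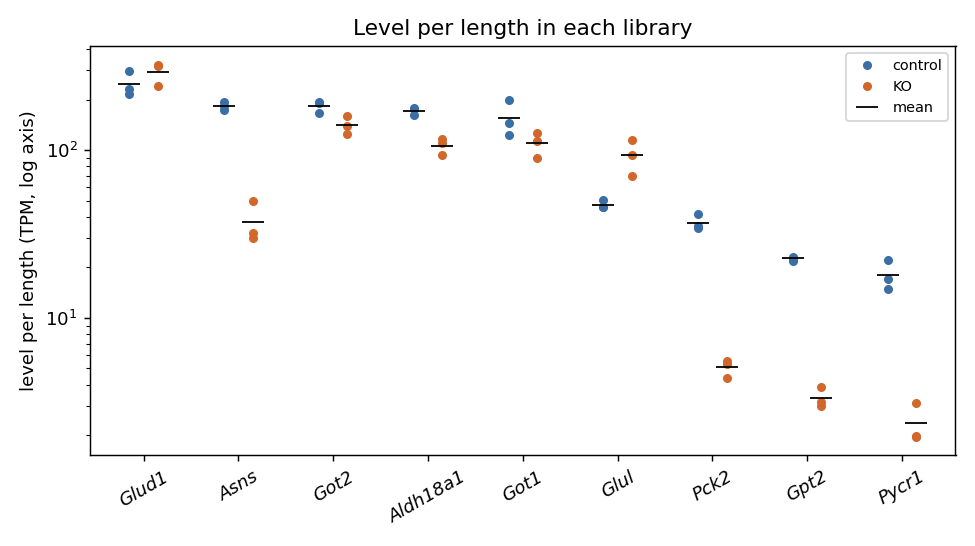
Level per length (TPM, log axis) of the 9 genes in each control (blue) and KO (orange) library, ordered by the control mean, with black lines at the means. Glud1 leads in both groups, and the KO points of Asns, Pck2, Gpt2 and Pycr1 drop to between 1.97 and 49.7 TPM.

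Genes with a like profile were sought by Pearson correlation of log2 CPM over the 6 libraries, among the 9443 tested genes that averaged 5 CPM or more and had a standard symbol. The group difference dominates such values, so they describe shape only. Most like Pycr1, the gene with the largest decrease, were Fam185a (r = 0.9994), Aldh1l2 (0.9989), the mitochondrial formyltetrahydrofolate dehydrogenase gene, and Erlin1 (0.9984). Most like Glul, the single gene that rose, were Usf1 (r = 0.9955) and Stk24 (0.9945). Glud1, with the smallest change, was most like Rbbp9 (0.9910), Wbp1 (0.9900) and Pnpla8 (0.9780).

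Further genes of these pathways were taken from 7 lists compiled by function. Over all of them, 73 genes other than the 9 were tested, of which 44 were called lower, 6 higher and 23 not called, with a median log2 fold change of −0.60. The background is the share given above, 22.9% of all tested genes lower and 23.2% higher. Without control replicate 1 the higher calls numbered 3 and the lower calls 37.

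Among 11 enzymes that use glutamine, 9 were called lower and none higher, with a median log2 fold change of −0.85. Gls2, a glutaminase, which starts glutamine breakdown, fell from 41.1 ± 2.89 to 14.2 ± 2.39 CPM (mean ± SD of 3 libraries), and its log2 fold change was −1.53 ± 0.156 (SE; adjusted p = 0.000251 by edgeR). The nucleotide enzymes Ctps (−1.16, adjusted p = 0.00894), Cad (−1.15, adjusted p = 0.00693), Gmps (−1.03, adjusted p = 0.000606) and Ppat (−0.85, adjusted p = 0.00816) were lower, as were Ctps2, Nadsyn1, Pfas and Gfpt1. Pfas was called although its groups overlapped, and lost its call without control replicate 1 (−0.72) or 2 (−0.74) and without KO replicate 2 (−0.70) or 3 (−0.62). Gfpt1 lost its call without KO replicate 2 (−0.41) or 3 (−0.43) and when scaled by library size alone, without TMM factors (−0.36). Gfpt2 (−0.64, adjusted p = 0.109) was not called.

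Of 8 other tested aminotransferases, 6 were lower and none higher, with a median log2 fold change of −0.94. Psat1, the aminotransferase of serine synthesis, fell from 387 ± 71.1 to 92.9 ± 30.1 CPM (mean ± SD of 3 libraries), and its log2 fold change was −2.06 ± 0.238 (SE; adjusted p = 0.000425 by edgeR). Bcat1 and Bcat2, which transfer the amino groups of branched-chain amino acids, had log2 fold changes of −1.43 (adjusted p = 0.00805) and −0.93 (adjusted p = 0.000530). Oat, which links ornithine to proline and glutamate, was lower too (−0.94, adjusted p = 0.00216). Kyat1 and Kyat3 were low, under 10 CPM in every library, and were called lower, calls lost without KO replicate 3 for Kyat1 (−0.61) and without KO replicate 2 for Kyat3 (−0.87), while Gpt and Abat were not called.

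Among 5 tested further proline genes, 2 were lower (Pycrl, above, among them), 1 higher and 2 not called. The higher one, Aldh4a1, encodes an enzyme of proline breakdown and rose from 5.83 ± 0.402 to 12.4 ± 1.48 CPM (mean ± SD of 3 libraries), and its log2 fold change was 1.08 ± 0.183 (SE; adjusted p = 0.00199 by edgeR). It is uncertain, because 30.03% of its 50-base stretches occur in other transcripts, mainly Gm21969. Prodh, which begins proline breakdown, was low and not called (adjusted p = 0.269). The peptidase Pepd (−0.44, adjusted p = 0.0506) was called when the replicate number entered the fit as a block (adjusted p = 0.0395).

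The aspartate list held both directions, with 5 of 15 tested genes lower, 2 higher and 8 not called. Shuttle enzymes Mdh1 (0.30, edgeR adjusted p = 0.168) and Mdh2 (0.12, adjusted p = 0.494) and the carriers Slc25a11 (0.23, adjusted p = 0.162) and Slc25a12 (−0.20, adjusted p = 0.137) were not called; Mdh1 was called with the block (adjusted p = 0.0444), and Mdh2 was −0.049 without control replicate 3. The other aspartate-glutamate carrier, Slc25a13, fell from 39.1 ± 7.30 to 17.2 ± 3.47 CPM (SD, n = 3; −1.18, SE 0.195, adjusted p = 0.00178). Dars and Nars, which load aspartate and asparagine onto their tRNAs, had log2 fold changes of −1.41 (adjusted p = 0.000243) and −0.86 (adjusted p = 0.00123). Adss, which uses aspartate on the way to AMP, and Adsl, the next enzyme of that path, were lower (−0.58 and −0.60, adjusted p = 0.00293 and 0.0283). The call for Adsl was lost without control replicate 1 (−0.69) or 2 (−0.41) and without KO replicate 2 (−0.598) or 3 (−0.52). Slc25a18, a mitochondrial glutamate carrier, was higher in KO, at 7.83 ± 0.265 against 1.64 ± 0.631 CPM (log2 fold change 2.28, adjusted p = 0.00108), and Nat8l, which makes N-acetylaspartate, rose from near 0 to 2.13 ± 1.54 CPM (adjusted p = 0.00524).

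Ass1, which joins aspartate to citrulline, held 169, 204 and 133 CPM in control replicates 1, 2 and 3 and 137, 80.4 and 43.5 CPM in KO. The groups overlapped, since KO replicate 1 lay above control replicate 3. It was not called (−0.96, SE 0.351, edgeR adjusted p = 0.0507), but the block brought a call (adjusted p = 0.00217), as did DESeq2 (adjusted p = 0.00791), the fit without KO replicate 1 (−1.45, adjusted p = 0.00543) and that without control replicate 3 (−1.17, adjusted p = 0.0197). Ass1 shares 38.6% of its 50-base stretches with other transcripts, mainly Gm5424.

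Among 7 tested enzymes and carriers of pyruvate, malate and phosphoenolpyruvate, 2 were lower, 1 higher and 4 not called. Pcx, pyruvate carboxylase, which supplies the oxaloacetate that Pck2 uses, was 34.97 ± 10.2 CPM in control and 41.2 ± 6.65 CPM in KO (SD, n = 3; 0.23, edgeR adjusted p = 0.392). Eno1, the enolase that makes phosphoenolpyruvate in glycolysis, was lower (−0.95, adjusted p = 0.000945), with 26.0% of its stretches shared, mainly with Eno1b. Malic enzyme Me2 (−0.57, adjusted p = 0.0222) was lower and Mpc2, a subunit of the pyruvate carrier, higher (0.49, adjusted p = 0.0110). Me2 lost its call without control replicate 2 (−0.40), KO replicate 2 (−0.57) or KO replicate 3 (−0.51), and Mpc2 without control replicate 1 (0.40) or KO replicate 2 (0.46).

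Of 9 tested amino acid carriers, 7 were lower, 1 higher and 1 not called. Slc7a5, the large neutral amino acid carrier that exchanges glutamine for leucine, fell from 363 ± 53.9 to 101 ± 38.3 CPM (mean ± SD of 3 libraries), and its log2 fold change was −1.84 ± 0.249 (SE; adjusted p = 0.000781 by edgeR). Slc1a4 (−2.003, adjusted p = 0.000251), Slc36a4 (−0.85, adjusted p = 0.00159) and the cystine-glutamate exchanger Slc7a11 (−2.83, adjusted p = 0.000635), at 0.687 ± 0.139 CPM in KO, were also lower. The main glutamine importers, Slc1a5, Slc38a2 and Slc38a1, changed less or gave no call. Slc3a2, the partner subunit of Slc7a5 and not itself an importer, also changed less. Slc1a5 (−0.44, adjusted p = 0.0336), Slc38a2 (−0.40, adjusted p = 0.0390) and Slc3a2 (−0.34, adjusted p = 0.0346), and the lysosomal Slc38a9, which was higher (0.52, adjusted p = 0.0364), kept their calls in only 1 of the 6 leave-one-library-out fits, that without control replicate 3. In the other 5 fits their log2 fold changes ran from −0.46 to −0.29 for the lower ones and from 0.35 to 0.54 for Slc38a9. Library-size scaling also ended the calls of Slc1a5 (−0.35), Slc38a2 (−0.32) and Slc3a2 (−0.25), and upper-quartile factors that of Slc38a9 (0.498). Slc3a2 was likewise not called without the filter on low counts (−0.36, edgeR adjusted p = 0.0521) or by DESeq2 (−0.37, adjusted p = 0.052). Slc38a1 was 264 ± 20.3 and 274 ± 8.13 CPM (0.055, adjusted p = 0.713).

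**Figure D4:**
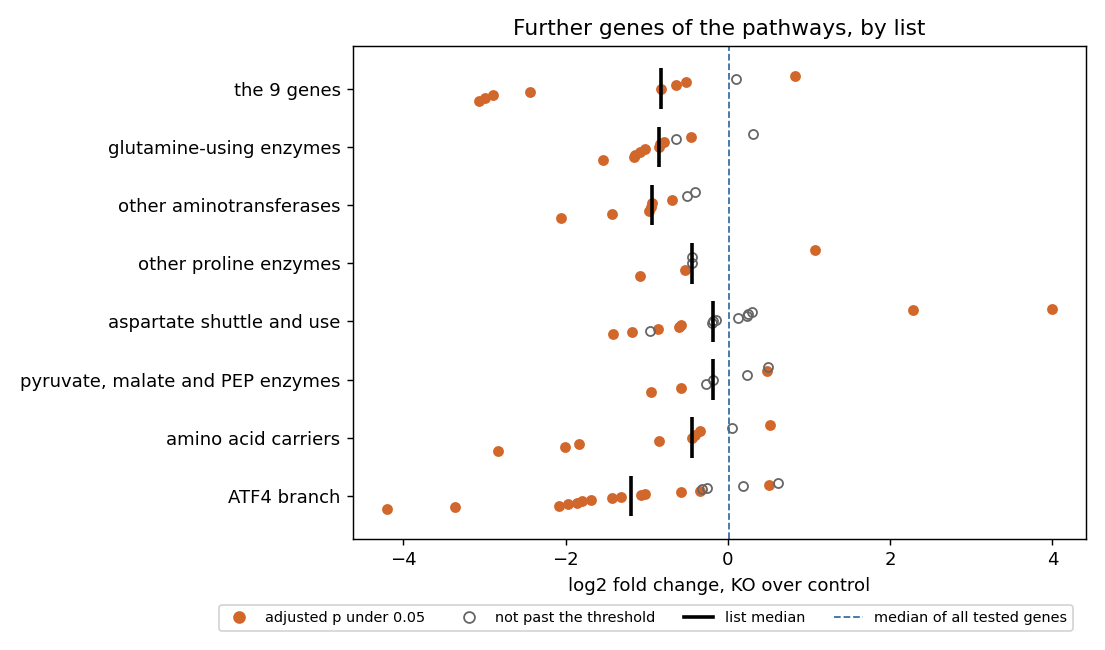
Log2 fold change of KO over control for the 9 genes and each tested gene of the 7 pathway lists, filled where the adjusted p-value was under 0.05, with list medians in black and the median of all tested genes (0.013) as a dashed line. The medians of the 7 lists lie between −1.19 (ATF4 branch) and −0.18, and the aspartate and pyruvate lists spread to both sides of 0.

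In the ATF4 branch, 13 of 18 genes were lower, 1 higher and 4 not called, with a median log2 fold change of −1.19. Atf4 itself held 396, 455 and 309 CPM in control replicates 1, 2 and 3 and 161, 133 and 138 CPM in KO, with no overlap (−1.43, SE 0.163, edgeR adjusted p = 0.000401). Stc2 (−4.21, adjusted p = 0.000142), the glutathione-degrading Chac1 (−3.36, adjusted p = 0.000334), the pseudokinase gene Trib3 (−1.86, adjusted p = 0.000120) and Nupr1 (−1.96, adjusted p = 0.00120) were lower, as were the serine and one-carbon enzymes Phgdh, Psph, Shmt2 and Mthfd2. Phgdh is uncertain, with 47.8% of its 50-base stretches in other transcripts, mainly Gm7901. Not every gene of the branch moved this way. Sesn2, an inhibitor of mTORC1 signalling, was higher (0.51, adjusted p = 0.0281), a call kept in 1 of the 6 leave-one-library-out fits, that without KO replicate 2 (0.66). Ddit3 was 35.07 ± 8.003 and 28.2 ± 4.87 CPM (SD, n = 3; −0.31, adjusted p = 0.220), and Atf3 (0.62, adjusted p = 0.0906) was called with the block (adjusted p = 0.0142). Eif2ak4, the kinase that senses uncharged tRNA, was slightly lower (−0.34, adjusted p = 0.0371), a call lost without control replicate 1 (−0.43) or 2 (−0.37), without KO replicate 2 (−0.33) or 3 (−0.31) and with library-size scaling (−0.26).

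Among the other regulators listed, Myc fell from 312 ± 29.5 to 188 ± 14.6 CPM (mean ± SD of 3 libraries), and its log2 fold change was −0.73 ± 0.123 (SE; adjusted p = 0.00193 by edgeR), and its groups did not overlap.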

How the data were processed

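RNA of 3 control and 3 KO Th17 cultures was sequenced. The authors deposited whole-number counts per gene symbol, 1 column per library; per the submitters' processing notes, STAR, featureCounts, DESeq2 and mm10 were used, with versions, annotation and strand setting not given in the sources used here. There were 0 columns without a sample and 0 unnamed rows. Groups and replicate numbers came from the titles.

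Counts were tested with edgeR 4.0.16 (R 4.3.3): TMM factors, filterByExpr by group (14268 genes, 99.9% of counts), quasi-likelihood test, Benjamini-Hochberg adjustment over all tested genes, threshold 0.05, no covariate. The biological coefficient of variation was 0.212. The SE is the absolute log2 fold change over the square root of F. The fit was tested on simulated data. Reads had no stated molecular identifiers, so limits at 0 counts cover counting error only. TPM used exon lengths from GENCODE M21 (GRCm38, 98.1% of symbols). Promoters are RefSeq's (GRCm38.p6).

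The 9 genes, lists and motifs were chosen with earlier results of these data known. Named are the 9 genes, Rtf1, list genes and, for each of 3 of the 9 genes, the 3 most correlated genes; values of some are not reported here. Equal replicate numbers correlated in their deviations from group means (0.270, 0.130 and 0.379, against −0.390 to 0.204 for unequal numbers). For control replicate 2 the value with KO replicate 1 (0.204) exceeded that with KO replicate 2 (0.130), so a pairing of the libraries is uncertain. The main fit did not use it, and blocked values stand where they change a call. Alternatives were other scalings and filters, DESeq2 1.42.0, the block, and leaving out libraries.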

Additional observations from a re-analysis of the deposited data

How the results depend on the processing

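Of the 9 genes, 8 kept their direction in each of 14 alternative fits, and Glud1, not called in any, ran from −0.076 (without control replicate 1) to 0.21 (without KO replicate 1). The count of the 9 genes called lower was 5 to 7 when 1 library was left out, as the calls for Got1 and Got2 were lost in some of these fits, and 7 in the others; that called higher stayed at 1. Their median log2 fold change lay between −0.95 (without control replicate 3) and −0.74 (library size as the only scaling). Leaving out 1 library gave 2170 to 3700 lower calls over all genes and 3 to 5 higher calls among the 73 pathway genes. Mdh2 (−0.049 to 0.24) and Slc38a1 (−0.062 to 0.069), not called in the fit of all libraries, turned direction without control replicate 3. With the replicate number as a block, 3857 genes were called higher and 3771 lower, and the calls of the 9 genes did not change. With the libraries numbered 1 and 2 alone, 2 against 2, which are of 1 sex, 7 of the 9 genes were lower and 1 higher. The cause of these shifts was not tested. Depth limits Pycr1 most, with 45 counts in KO replicate 3.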

Other observations

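Per length, Slc25a13 made up 46.3% ± 4.04 of the transcripts of the 2 aspartate-glutamate carriers in control and 30.4% ± 4.07 in KO. The control shares were 50.2%, 46.6% and 42.1%, all above the KO shares of 35.1%, 27.97% and 28.1%. These shares were not tested, and they depend on the exon length used: with the longest protein-coding transcript they averaged 47.6% in control and 31.5% in KO.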
